A study of Mus musculus with 18 samples.

Results

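The 10 genes described here encode the subunits of Polycomb repressive complex 2 (PRC2): Ezh2, Ezh1, Eed, Suz12, Rbbp4, Mtf2, Phf1, Phf19, Jarid2 and Aebp2. They were listed by name as known subunits, and are 10 of 17274 protein-coding genes of the autosomes and chromosome X that could be given a strand. Their histone marks were read at the gene start (1 kb before to 1 kb after the annotated 5′ end) and over the gene body (from 1 kb after the 5′ end to the 3′ end). The material was E14 mouse embryonic stem cells, an established pluripotent line, grown with 2i and LIF, which hold such cells in the undifferentiated state. Chromatin immunoprecipitation sequencing gave 18 libraries in 9 groups of 2. Untreated cells gave 10 libraries, for H3K27me1, H3K27me2, H3K27me3, H3K36me2 and H3K36me3, with no spike-in. The other 8 came from cells kept for 7 days in 10 µM EPZ-6438, a small-molecule inhibitor of EZH2 (EZH2i), or in the same volume of its solvent DMSO. In those 8 libraries, for H3K27me3 and H3K36me2, chromatin of the Drosophila cell line S2 had been added at 0.05% of the total as a spike-in. All groups are the same line, and the labels do not say whether replicates were separate cultures, so p-values and errors measure only the spread between these libraries, which may be technical. An SD is that of the 2 libraries of a group, and an SE is that of limma's fit to 4 libraries, moderated over all genes.

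PRC2 places methyl groups on lysine 27 of histone H3. EZH2 or EZH1 carries the catalytic site, EED and SUZ12 are needed for activity, and RBBP4 is a histone-binding partner. MTF2, PHF1 and PHF19 are alternative Polycomb-like subunits of the form called PRC2.1, and JARID2 and AEBP2 belong to the form called PRC2.2. H3K27me3 is known for covering silent developmental genes in embryonic stem cells, H3K27me1 and H3K36me3 for lying over transcribed gene bodies, and H3K27me2 and H3K36me2 for wide regions between and within genes.

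RefSeq promoter sequences (GRCm38.p6, 250 bases before to 50 bases after a listed start) were found for 10 of 10 genes, with 14 listed starts. The 3 motif forms TTTCGCGC, TTTGGCGC and TTTCCCGC, known as binding motifs of E2F factors, were searched on both strands. They occurred in 3 of the 14 promoters, those of Ezh2, Suz12 and Phf19. The share was 2.43% over all 21045 promoters in the table, which were not matched for CpG number. The 3 promoters are shown with the match in capitals. That of Ezh1, which held no match, is shown beside them because Ezh1 is the alternative catalytic gene. Phf19 is at chr2:34913927-34914226 (minus strand), Ezh2 at chr6:47594981-47595280 (minus), Suz12 at chr11:79992856-79993155 (plus) and Ezh1 at chr11:101226414-101226713 (minus). All are written 5′ to 3′ in the direction of the gene.
Phf19: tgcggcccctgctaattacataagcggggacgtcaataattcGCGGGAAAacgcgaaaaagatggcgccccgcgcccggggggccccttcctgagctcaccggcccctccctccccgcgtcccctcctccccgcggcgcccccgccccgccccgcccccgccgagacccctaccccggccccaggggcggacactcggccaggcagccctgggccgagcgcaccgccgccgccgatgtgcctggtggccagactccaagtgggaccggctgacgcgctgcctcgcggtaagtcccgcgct
Ezh2: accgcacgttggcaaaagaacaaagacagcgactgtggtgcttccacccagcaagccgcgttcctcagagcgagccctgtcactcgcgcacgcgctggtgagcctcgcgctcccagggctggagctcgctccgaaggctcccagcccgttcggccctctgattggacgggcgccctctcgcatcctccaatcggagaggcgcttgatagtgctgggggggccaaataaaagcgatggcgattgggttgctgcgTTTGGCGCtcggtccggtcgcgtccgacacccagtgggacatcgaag
Suz12: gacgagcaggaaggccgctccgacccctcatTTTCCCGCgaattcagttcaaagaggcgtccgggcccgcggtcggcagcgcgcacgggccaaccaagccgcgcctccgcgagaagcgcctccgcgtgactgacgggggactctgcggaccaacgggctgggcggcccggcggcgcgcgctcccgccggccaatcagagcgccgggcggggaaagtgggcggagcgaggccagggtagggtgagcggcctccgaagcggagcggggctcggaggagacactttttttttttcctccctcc
Ezh1: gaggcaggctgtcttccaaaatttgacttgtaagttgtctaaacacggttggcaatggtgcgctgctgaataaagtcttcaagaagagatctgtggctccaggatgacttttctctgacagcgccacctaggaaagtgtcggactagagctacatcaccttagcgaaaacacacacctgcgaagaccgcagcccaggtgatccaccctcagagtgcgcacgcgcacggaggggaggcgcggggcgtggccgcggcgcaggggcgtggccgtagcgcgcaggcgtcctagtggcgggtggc
The Phf19 match lies on the opposite strand and begins 208 bases before the listed start. That start lies 377 bases inside the annotated 5′ end, so the match lies within the annotated gene. The Suz12 match begins 219 bases before the start, and that of Ezh2 3 bases after its listed start, which lies 240 bases inside the annotated 5′ end. These promoters are rich in CpG: Suz12 holds 41 CpG in 300 bases, Rbbp4 39, Phf19 38 and Ezh2 31, against a median of 13 over all promoters. Ezh1 holds 23, Eed 17 and the first listed start of Aebp2 4. The motif CCAAT was present in 38.5% of all promoters and in the first listed promoter of 5 members (Ezh2, Eed, Suz12, Rbbp4 and Jarid2). AAGATGG occurred in Phf19 alone among the members (6.28% of promoters), GCGCATG in Rbbp4 alone (4.84%), and CCGGAAG in no member (11.7%). A match is only a run of letters in this window.

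Levels in untreated cells are given as multiples of the library's own mean over all 1 kb windows of the autosomes and X, so that 1 is the genome average of that mark in that library. Read numbers given for a gene are sums over its windows. A read touched an estimated 1.32 windows on average in untreated libraries, so some reads are counted more than once in such sums. Untreated libraries held an estimated 17.3 to 51.0 M mouse reads. Quantitative libraries held 16.3 to 84.4 M, apart from H3K27me3 after EZH2i with 0.749 and 1.34 M. At marker genes, H3K36me3 over the body was 4.71 to 8.24 in 9 matched pluripotency genes and 1.38 to 2.22 in 6 matched lineage genes. These lists set pluripotency genes against lineage genes and do not tell naive from other pluripotent states. H3K27me3 at the start was 8.53 to 15.8 in those lineage genes, with a median of 0.102 in the pluripotency genes, of which Esrrb was the exception at 6.23. The H3K27me1 replicates differed at gene starts, with medians over all genes of 1.10 and 0.785, and replicate 1 was above replicate 2 at the start of 10 of 10 members and of 75.1% of all genes.

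Ezh2 (chr6:47530274-47595270, minus strand), the main catalytic gene in dividing cells, had almost no H3K27me3 of its own. At its start 3 and 1 reads were counted in the 2 untreated libraries, 0.118 and 0.0469 times the genome average, and over the body the level was 0.0331 and 0.0337. H3K27me2 over the body was 0.364 and 0.464. H3K36me3 over the body was 3.18 and 2.55, and H3K27me1 was 2.1 and 1.61. Both libraries of each mark therefore placed Ezh2 below the genome average for H3K27me2 and H3K27me3 and above it for H3K27me1 and H3K36me3. With the gene cut into 3 equal segments, H3K36me3 was 1.28, 3.35 and 3.92 from the first to the last, and H3K27me1 was 1.21, 2.29 and 2.06 (means of 2 libraries). A lncRNA, F830010H11Rik, is annotated within 1 kb of the Ezh2 start, so reads there cannot be given to 1 gene.

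Ezh1 (chr11:101191115-101226463, minus strand), the catalytic gene known for its expression in resting cells, lay in other chromatin. Its body had H3K27me2 of 2.29 and 2.06, at percentile 86.0 of 15571 genes, where that of Ezh2 was at percentile 12.1. H3K36me2 was 2.01 and 1.62 over the body and 2.13 and 1.78 at the start. H3K36me3 over the body was 4.56 and 4.94, above that of Ezh2 in both libraries. H3K27me3 was 0.157 and 0.0469 at the start and 0.628 and 0.549 over the body, and it was 5.57 ± 0.0119 (SD, n = 2) in the 20 kb past its 3′ end. The authors' peak lists, made of peaks found in both untreated libraries of a mark, place the whole of Ezh1 in 1 H3K36me2 peak of 124.5 kb (chr11:101161501-101286000). They also place it in 1 H3K27me2 peak of 55.0 kb (chr11:101178001-101233000). An H3K27me3 peak of 23.0 kb (chr11:101173001-101196000), which also covers Ccr10 and Cntnap1, reaches 14.2% of the Ezh1 body from the 3′ side and stops there.

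The core genes Eed (chr7:89954654-89980976, minus strand), Suz12 (chr11:79993106-80034123, plus) and Rbbp4 (chr4:129307100-129335370, minus) had similar levels over the body. H3K27me3 over the body was 0.0439 and 0.0262 in Eed, which holds the pocket that reads H3K27me3. It was 0.0431 and 0.0141 in Suz12 and 0.0407 and 0.0660 in Rbbp4. H3K27me2 over the 3 bodies lay between 0.0873 and 0.271. H3K36me3 lay between 4.27 and 5.58, with Eed at 5.58 and 4.75, Suz12 at 4.93 and 4.27 and Rbbp4 at 5.50 and 4.88. Suz12 was the lowest of the 3 in both libraries, while the order of Eed and Rbbp4 turned between them. H3K36me2 was low over the body and lowest in Suz12, at 0.262 and 0.248, where the start had 1.09 and 0.940. The fall from start to body in Suz12, as a log2 ratio with 0.1 added to both levels, was at percentile 2.00 of all genes. Rbbp4 shares its start region with Zbtb8os and overlaps Sync, so its values are mixed with theirs.

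Among the PRC2.1 genes, Phf19 (chr2:34893752-34914353, minus strand) was the only member with its start inside an H3K27me3 peak. At the start, H3K27me3 was 10.3 in both untreated libraries (263 and 219 reads), at the 97.0th percentile of 17274 genes, and the next member, Phf1, had 0.235 and 0.281. The level was highest 1.5 kb inside the gene, at 13.1, and had dropped to 0.932 by 5 kb before the start. Over the body it was 4.45 and 4.93. Within the body it was 4.94 in the first segment, 2.59 in the middle and 6.88 in the last, and the authors' list accordingly holds 2 peaks, chr2:34907501-34919500 over the start and chr2:34873001-34904500 over the 3′ part. H3K36me2 was also high, at 2.99 and 2.77 over the body, inside 1 peak of 63.0 kb, and H3K27me2 was 2.04 and 1.73. H3K36me3 over the body was 2.36 and 2.45, the lowest of the 10 members in both libraries, although above the genome average and at the 55.0th percentile of genes.

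Phf1 (chr17:26933127-26937908, plus strand), a Polycomb-like gene of only 4.78 kb, had the highest H3K36me3 of the members over the body, at 11.2 and 11.5, the 98.6th percentile of genes. It also had the highest H3K27me2, at 3.51 and 2.72 (98.5th percentile), and the highest H3K27me1, at 3.46 and 2.90 (93.9th). H3K27me3 was 0.628 and 0.305 over the body (32 and 13 reads in 4 windows) and 3.51 in the 20 kb past the 3′ end. H3K36me3 and H3K27me2 were thus both at the top of the distribution over the same 4 windows, which is an average over cells and alleles. Part of the gene Kifc5b is annotated within 1 kb of the Phf1 start, and its reads cannot be separated there.

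Mtf2 (chr5:108065660-108109219, plus strand), the Polycomb-like subunit known as the main one in embryonic stem cells, stood at the other end. H3K27me3 over the body was 0.0224 and 0.0112 and H3K27me2 0.0499 and 0.0869, each the lowest of the 10 members in mean level. H3K27me1, at 0.805 and 0.601, was the lowest as well and the only member level of that mark below the genome average over the body in the mean. H3K36me3 was 4.50 and 3.10 at the start already and 4.51 and 3.57 over the body. Start and body levels of H3K36me3 were thus nearly equal in Mtf2.

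The PRC2.2 genes Jarid2 (chr13:44730774-44921643, plus strand) and Aebp2 (chr6:140622454-140678472, plus strand) had intermediate levels. Jarid2, which encodes a subunit that helps to recruit PRC2, is the longest member, at 190.9 kb. Its H3K27me3 was 0.114 and 0.117 over the body, and its start had 2 and 0 reads. H3K36me2 was 1.26 and 1.22 over its body and H3K36me3 3.19 and 2.82, with 4.74 in the last segment against 2.39 in the first. Aebp2, a zinc-finger subunit, had H3K27me3 of 0.188 and 0.291 over the body, and its start lay in an H3K36me2 peak of 112.0 kb that also overlaps the neighbouring gene Plekha5. In Aebp2 the H3K36me2 level ran from 0.977 in the first segment to 2.80 in the last, while H3K36me3 went from 5.07 to 2.63.

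**Figure D1:**
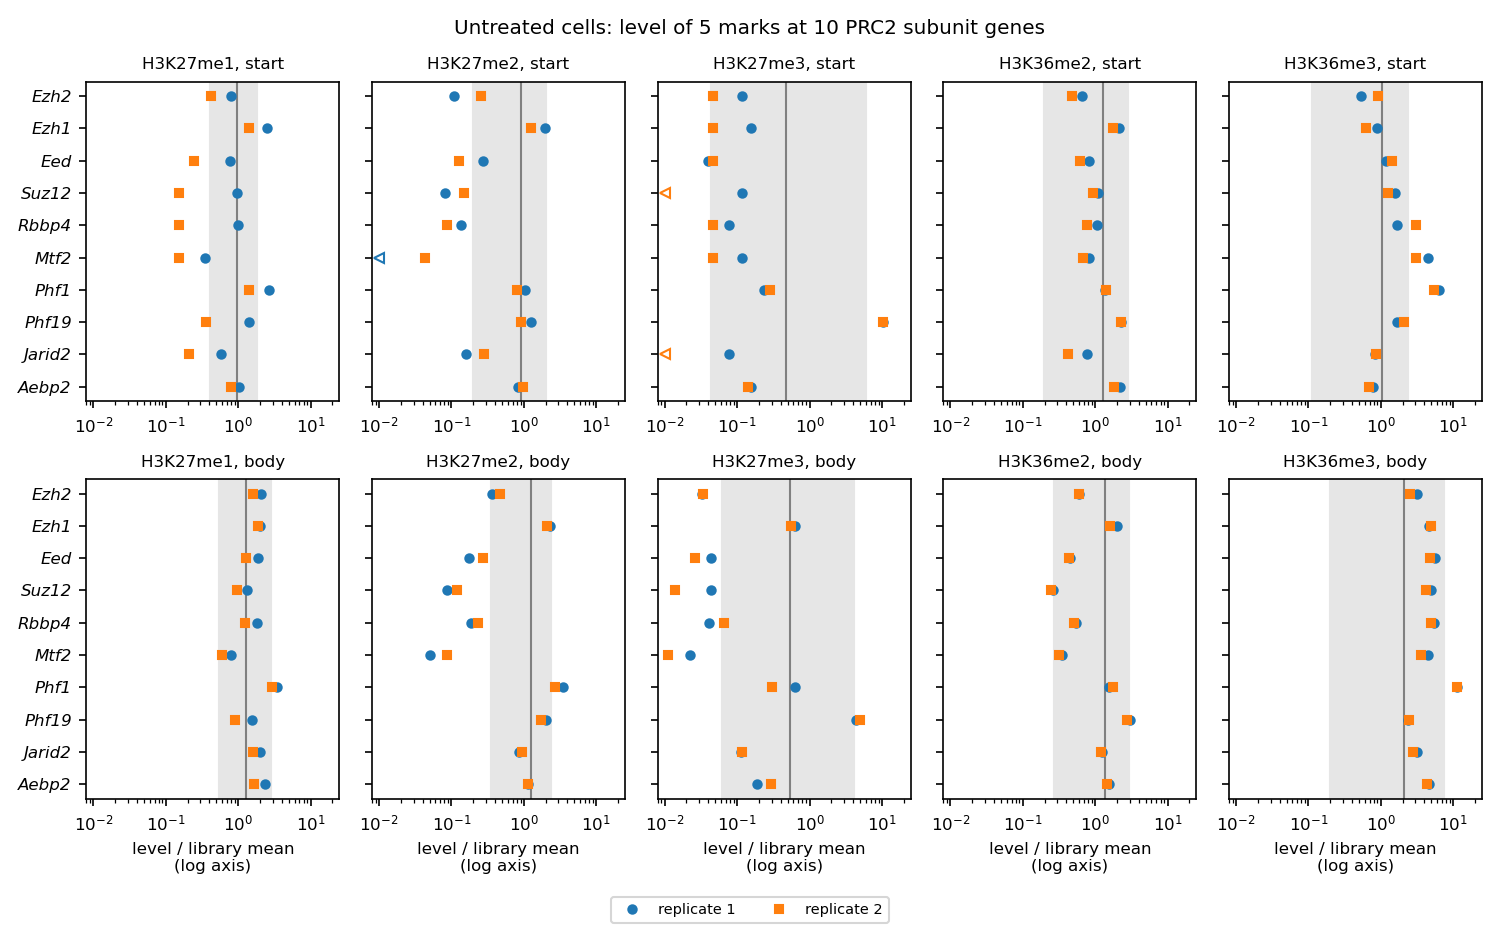
Level of each mark in untreated cells at the start (top) and over the body (bottom) of the 10 genes, as multiples of the library mean on a log axis. Circles and squares are the 2 replicates, open triangles at the left edge are libraries with 0 reads, the grey band runs from the 10th to the 90th percentile of all genes and the line is their median. Phf19 is alone above the band for H3K27me3. For H3K36me3, Phf1 is above it in both rows, Mtf2 at the start, and Rbbp4 at the start in replicate 2 only.

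The overlap of the members with the peaks of 4 marks is given here beside the share over all genes. The start lay in an H3K27me3 peak in 1 of 10 members (Phf19), where 30.4% of all genes had one, and in an H3K27me2 peak in 1 of 10 (Ezh1) against 30.5%. For H3K27me1 it was 2 of 10 (Ezh1 and Phf1) against 25.8%, and for H3K36me2 4 of 10 (Ezh1, Rbbp4, Phf19 and Aebp2) against 50.3%. At least 50% of the body lay in H3K27me1 peaks in 7 of 10 members, all but Suz12, Mtf2 and Phf19, against 44.4% of genes. The same share was reached for H3K27me2 in 3 (Ezh1, Phf1 and Phf19) against 45.1%, for H3K27me3 in 1 (Phf19) against 27.2% and for H3K36me2 in 3 (Ezh1, Phf1 and Phf19) against 49.4%. Mtf2 overlapped no peak of the 4 marks over its body. With 10 genes these counts are a description, and none was tested.

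H3K36me3 was higher over the body than at the start in both libraries in 10 of 10 members and in 64.8% of all genes. The log2 ratio was taken after adding 0.1 to both levels, which lowers it most where the start level is low. It was 2.52 ± 0.378 (SD, n = 2) in Ezh1 and 2.46 ± 0.0778 in Aebp2, which do not differ beyond that spread. The lowest was that of Mtf2, at 0.10 ± 0.137. The all-gene median was 0.776. The Aebp2 ratio was taken from the annotated 5′ end. At the listed start 2.455 kb inside, H3K36me3 was already 5.13 and 3.56 times the genome average. H3K27me1 was higher over the body in both libraries in 9 of 10 members, all but Ezh1, and in 60.7% of genes.

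**Figure D2:**
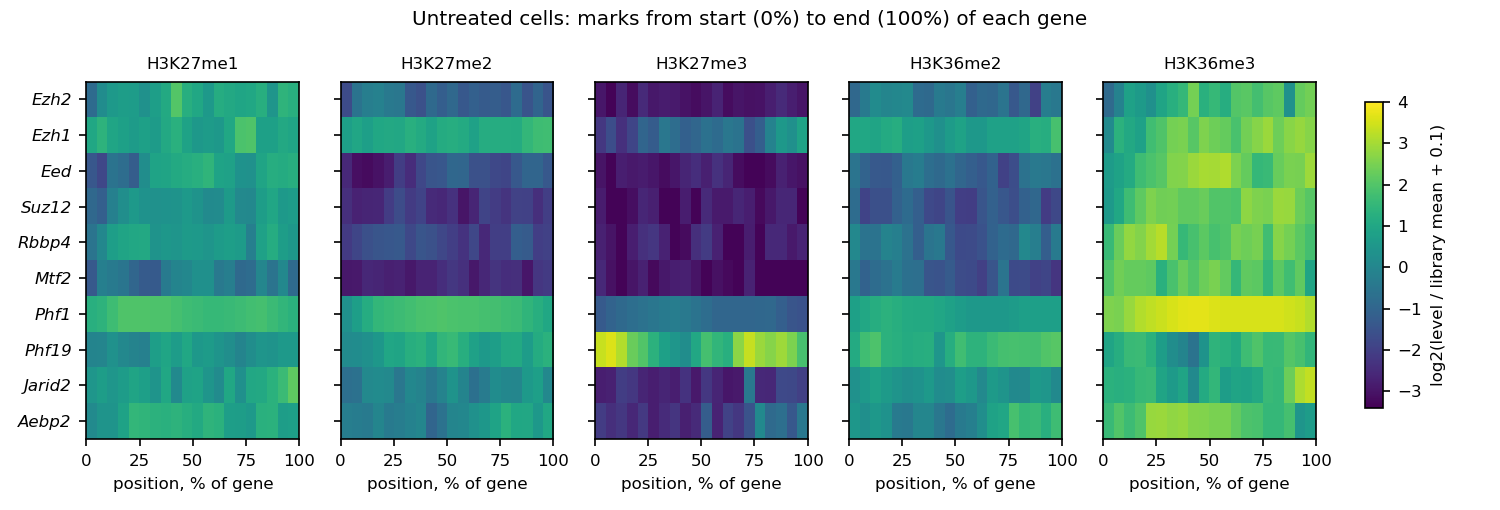
Mean level of 2 untreated libraries for each mark from the start (0%) to the end (100%) of each gene, on a log2 scale with 0.1 added. H3K36me3 lies over all 10 genes, and H3K27me3 is highest over Phf19, towards both ends of the gene.

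**Figure D3:**
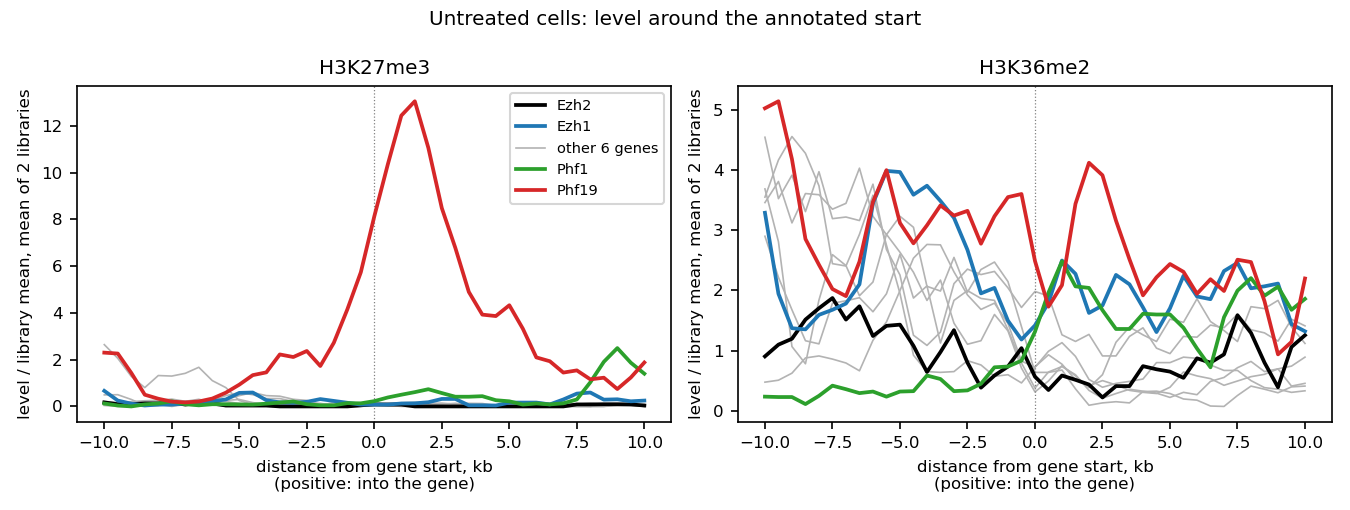
H3K27me3 (left) and H3K36me2 (right) within 10 kb of the annotated start in untreated cells, as multiples of the library mean (mean of 2 libraries). The Phf19 line reaches 13.1 for H3K27me3 at 1.5 kb inside the gene, and the Ezh2 line stays near 0.

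Likeness over the 10 untreated values (5 marks at start and body) was measured as a distance between log2 levels. Each level had 0.1 added before the log and was standardised over 15571 genes. The genes nearest to Ezh2 were Rbm33 (distance 0.483), Stam (0.528) and Capza2 (0.561), and its nearest member was Eed (1.16). The member farthest from the others on average was Phf19 (5.24). Its nearest genes were Ace (0.477), Iffo2 (0.493) and Fmnl1 (0.517), and its nearest member was Ezh1 (3.72).

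After EZH2i, H3K27me3 fell at PRC2 genes on the spike-in scale. Values here are scaled reads per 1 kb window, the read number times the factor in each deposited track, read here as a spike-in factor since no source states it. The limma test used log2(value + 1) over all genes with Benjamini-Hochberg adjustment. Over the body, 10 of 10 members fell, as did 98.3% of the 15373 genes tested. At the start 9 of 10 members fell, against 94.1% of 16803 genes. The members' shares are those of nearly all genes, and no gene rose in either test. The direction depends on the spike-in scale. At starts, where most members had few reads, the members' median log2 change was -2.90 on it, against -4.70 over all genes. With each library divided by its own mean it was 1.26, against 0.134 over all genes, and 0 members and 0 genes were called. Median centring subtracted each library's median gene from the log2(value + 1) spike-in values. It therefore moved the change of every gene by the same amount and kept their order, which mainly tracks the DMSO level. The members' median log2 change was then 1.91, against 0.104 over all genes. There 7 members were called higher and Phf19 lower, with 5411 of 16803 genes higher and 6516 lower. Those directions follow from that order and are no separate result on the members. Over bodies, division by the library mean called 8 members and 4676 of 15373 genes higher. Median centring called 7 members and 6308 genes higher, with Phf19 among 6566 genes lower.

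Phf19, the member with the most H3K27me3, had 826 and 473 scaled reads per window at its start after DMSO and 1.09 and 0.743 after EZH2i. The groups were far apart, 710-fold in their means, with 9 and 15 reads left in the 2 EZH2i libraries. The change was -8.36 on the log2 scale (SE 0.376, limma adjusted p = 2.31e-05). Over the Phf19 body the level went from 247 and 162 to 0.395 and 0.250, a 634-fold lower mean (log2 change -7.25, SE 0.271, limma adjusted p = 8.08e-07).

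Ezh1 had 36.4 and 28.7 over its body after DMSO and 0.164 and 0.105 after EZH2i, a 242-fold lower mean (log2 change -4.88, limma adjusted p = 1.44e-06). The gene whose product the inhibitor targets, Ezh2, started much lower, at 3.16 and 2.37, and went to 0.0416 and 0.0278, 79.6-fold lower (log2 change -1.85, limma adjusted p = 0.000158). Here 34 and 45 reads stood against 11 and 18. In both catalytic genes the groups did not overlap, on a scale where 98.3% of the 15373 genes were called lower over the body.

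Among the core genes, Eed went from 3.8 and 4.04 to 0.0678 and 0.0277, Suz12 from 2.67 and 3.03 to 0.0423 and 0.0495, and Rbbp4 from 3.52 and 3.62 to 0.0448 and 0.0367. Their means were 82.2-fold, 62.1-fold and 87.6-fold lower. These folds rest on few reads over both libraries of a group: 46, 54 and 45 after DMSO, and 14, 27 and 15 after EZH2i. Phf1 went from 46.1 and 25.3 to 0.423 and 0.421 (84.5-fold). Mtf2 had the smallest fold, 29.8, from 1.56 and 2.01 to 0.0749 and 0.0448. Its reads were nearly equal, 36 after DMSO and 32 after EZH2i, so that fold comes almost wholly from the track factors. Those factors were 5.943 and 3.37 after DMSO and 0.242 and 0.099 after EZH2i. Jarid2 was 85.4-fold and Aebp2 143-fold lower. Since 1 was added before taking logs and all EZH2i values are below 1, the log2 change mainly tracks the DMSO level: it ran from -1.39 in Mtf2 (SE 0.214) to -7.25 in Phf19, around an all-gene median of -4.62.

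At the start, the members other than Phf19 had few reads in any library, 0 to 12 after DMSO and 0 to 8 after EZH2i. Mtf2 (3 and 0 reads after DMSO, 1 and 4 after EZH2i) did not pass, with a log2 change of -1.44 (SE 1.09, limma adjusted p = 0.252). It did pass without DMSO replicate 2 (limma adjusted p = 0.00328), with limma-voom and within 2.5 kb of the start. Ezh2 passed narrowly (limma adjusted p = 0.0423). Eed no longer passed without DMSO replicate 2 or without EZH2i replicate 2 (limma adjusted p = 0.0736 and 0.0589). Folds at these starts rest on too few reads to be given.

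**Figure D4:**
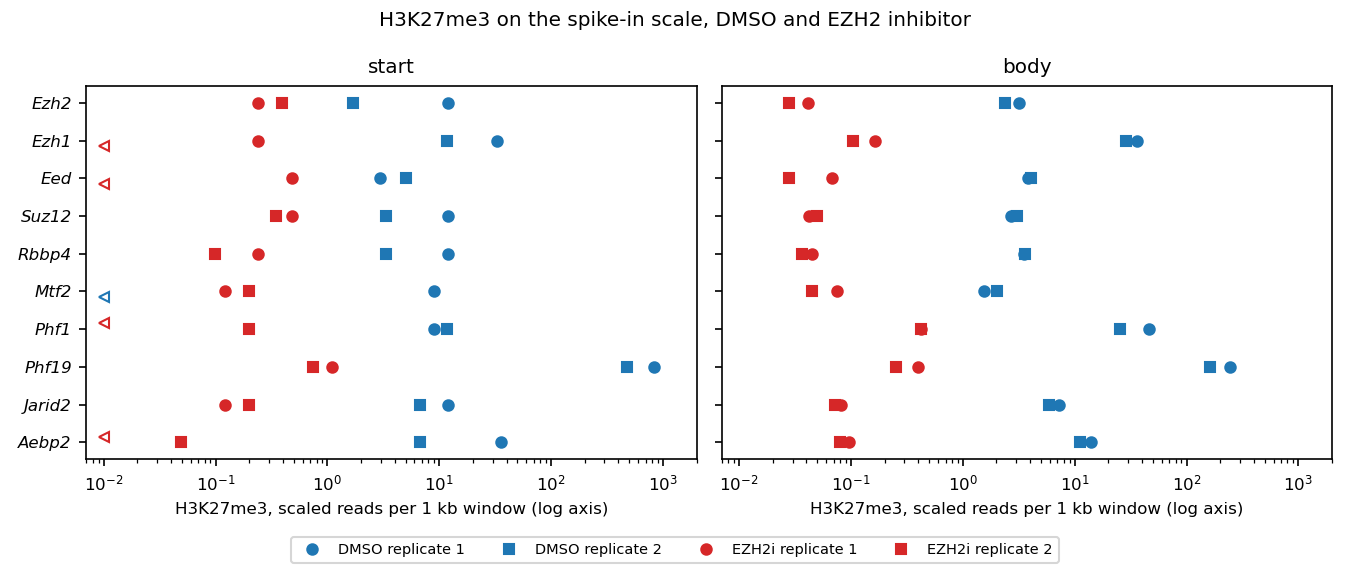
H3K27me3 in scaled reads per 1 kb window on a log axis at the start (left) and over the body (right). Blue is DMSO, red is EZH2i, circles and squares are replicates 1 and 2, and open triangles at the left edge are libraries with 0 reads. Over the body every DMSO point lies to the right of every EZH2i point of the same gene, by 29.8-fold in Mtf2 to 634-fold in Phf19 in the means. On this scale 98.3% of the 15373 genes tested were called lower over the body.

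The remaining H3K27me3 reads were spread differently over the members. Divided by the library mean, the body of 9 of 10 members was higher in both EZH2i libraries than in both DMSO libraries, which held for 50.2% of all genes. Phf19 was lower in both, as were 27.7% of genes. Across all genes the 10th percentile of the body level was 0.106 after DMSO and 0.307 after EZH2i, and the 90th was 4.37 and 3.33. The bodies of Ezh2, Eed, Suz12, Rbbp4 and Mtf2 were below that 10th percentile after DMSO. Genes of similarly low level were not compared, so these shares do not set the members apart from such genes. Ezh2 went from 0.0649 and 0.0664 times the library mean to 0.456 and 0.417. Mtf2 went from 0.0320 and 0.0562 to 0.822 and 0.670, a log2 ratio of 4.08 in the means, at the 99.0th percentile of genes. Phf1 went from 0.946 and 0.708 to 4.65 and 6.30, on 7 and 17 reads. Phf19 went from 5.07 and 4.54 to 4.33 and 3.74. The 10 members, which covered 0.0320 to 5.07 times the library mean after DMSO, thus covered 0.415 to 6.30 after EZH2i.

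On this library-mean scale, tested as log2(multiple of the mean + 1), 8 of 10 members rose over the body with limma, against 30.4% of the 15373 genes. Those genes were again not matched to the members' level after DMSO. Eed (limma adjusted p = 0.0580) and Phf19 (log2 change -0.21, limma adjusted p = 0.223) did not pass. The count depends on the library left out, in fits that keep 1 library in a group. No call was left when either DMSO library was missing. The members' median log2 change was 0.605 and 0.660 without EZH2i replicate 1 or 2, against all-gene medians of 0.221 and 0.250. It was 0.564 and 0.608 without DMSO replicate 1 or 2, against 0.233 and 0.240. With the replicate number as a block, 4 members and 2923 of the 15373 genes were called higher. At the start, 5 members (Ezh2, Suz12, Rbbp4, Mtf2 and Jarid2) were higher in both EZH2i libraries, against 31.6% of genes, and Phf19 was lower in both, against 29.0%. None of the 10 passed limma there, nor did any other gene (5345 at an unadjusted p under 0.05). Members and other genes did pass when 1 EZH2i library was left out, in fits with 1 library in that group. The members' median log2 change was then 1.37 without replicate 1 and 1.20 without replicate 2, against all-gene medians of 0.174 and -0.0955. No input library was used, so the part of unspecific reads in the shallow EZH2i libraries was not tested.

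H3K36me2 showed no called change at any member. The start was called in 0 of 10 members, against 0.690% of 16960 genes, and the body in 0 of 10, against 0.214% of 15436 genes (limma on the spike-in scale, either direction). All 20 adjusted p-values were 1.00 after rounding. The estimate was loose, with an SE of 0.617 on the log2 scale at starts and 0.505 over bodies. Differences of that size, and larger ones, could not be told from 0. With the replicate number as a block, 0 genes were called at starts and 1165 over bodies (1126 higher, 39 lower), and still 0 members. At starts the members ran from -0.49 in Ezh2 to 0.53 in Mtf2, and over bodies from -0.10 in Ezh1 to 0.30 in Suz12. The all-gene medians were 0.04 and 0.07.

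Ezh2 had 167 and 128 scaled reads per window of H3K36me2 at its start after DMSO and 152 and 70.1 after EZH2i. Mtf2 had 167 and 122 after DMSO and 233 and 183 after EZH2i. Both EZH2i values are above both DMSO values, but Mtf2 was not called. The share of all genes with such a separation was not counted on this scale. Phf19, with the highest level, had 778 and 678 at its start after DMSO and 829 and 496 after EZH2i. Over its body it had 941 and 628 against 1020.5 and 591. In Ezh2 and Phf19 the ranges overlap, and the 2 DMSO libraries of the mark themselves differed in their genome mean, 323 against 213 scaled reads per window, as did the EZH2i libraries, 404 against 227.

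Divided by the library mean, the libraries have the same mean by construction. Over bodies replicate 1 was then below replicate 2 in 10 of 10 members after DMSO and after EZH2i. Among all genes, replicate 1 was above replicate 2 in 40.1% after DMSO and 34.2% after EZH2i. The all-gene medians were 1.39 and 1.55 after DMSO, and 1.26 and 1.46 after EZH2i. H3K36me2 at the start was lower in both EZH2i libraries than in both DMSO libraries in 6 of 10 members (Ezh2, Eed, Suz12, Phf19, Jarid2 and Aebp2), against 37.9% of genes, and higher in 1 (Mtf2), against 11.6%. The lowest was Ezh2, from 0.515 and 0.599 to 0.377 and 0.310, a log2 ratio of -0.70 at percentile 2.42 of genes, on 56 reads after DMSO and 45 after EZH2i. Mtf2 went from 0.515 and 0.573 to 0.577 and 0.810. Over bodies 3 members were lower in both (Ezh1, Phf19 and Jarid2), against 36.4%, and 0 were higher, against 16.0%. Ezh1 had the largest body difference, from 2.00 and 2.16 to 1.57 and 1.81, a log2 ratio of -0.30. None of these passed limma on the library-mean scale, where the lowest adjusted p among members was 0.283 at starts and 0.276 over bodies, and no gene was called (2724 and 2719 at an unadjusted p under 0.05).

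**Figure D5:**
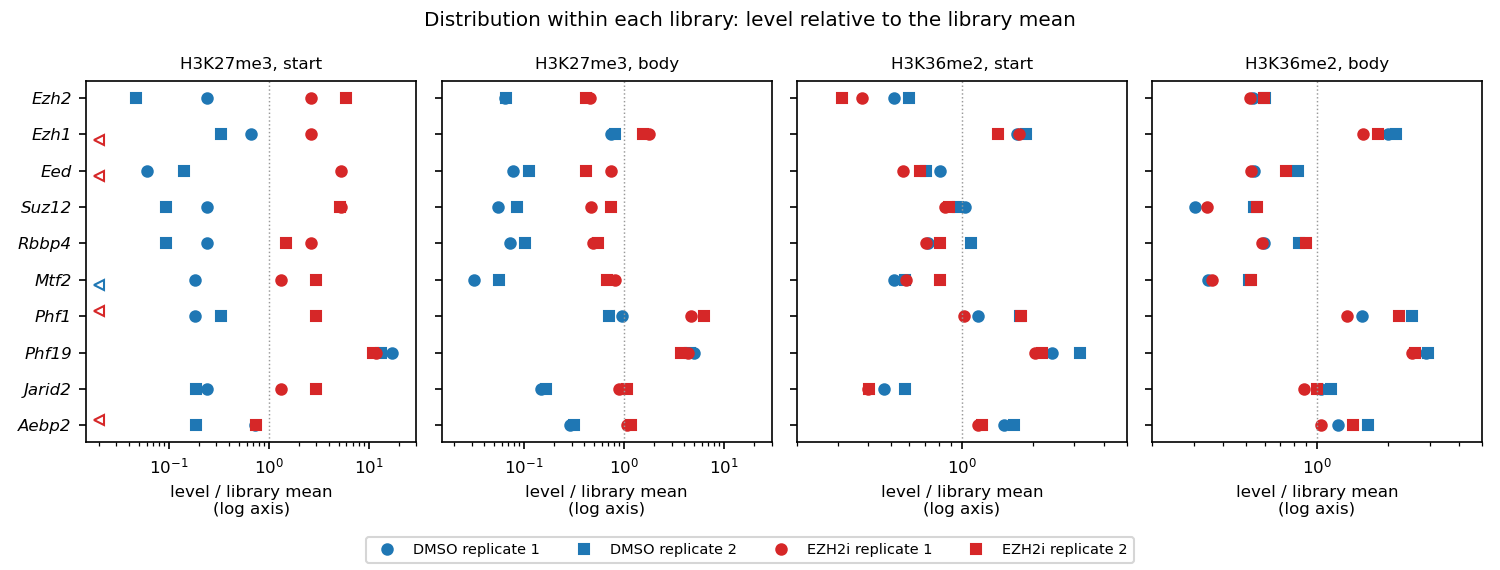
Levels divided by the library mean for H3K27me3 and H3K36me2 at starts and over bodies, after DMSO (blue) and EZH2i (red), on log axes that differ between the marks. Circles and squares are replicates 1 and 2, open triangles are libraries with 0 reads and the dotted line is the library mean. H3K27me3 over bodies lies closer together after EZH2i, and H3K36me2 keeps the members in nearly the same places.

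Of 7 further genes of H3K27 methylation and its removal, 5 could be placed: Rbbp7, which encodes a close relative of RBBP4, the PRC2.1 partners Lcor and Lcorl, the PRC2 inhibitor Ezhip and the H3K27 demethylase gene Kdm6a. Epop and Kdm6b were not analysed here. H3K27me3 fell over the body in 5 of 5 (98.3% of all genes) and at the start in 4 of 4 tested (94.1%). H3K36me2 was called in 0 of 5 at the start (0.690% of all genes) and over the body (0.214%), so these shares are close to those of all genes. Ezhip was, like Phf19, under H3K27me3 at its start, with 4.78 in both untreated libraries, and went from 318 ± 80.1 scaled reads per window to 0.514 ± 0.0428 (SD, n = 2), with a log2 change of -7.70 (limma adjusted p = 2.29e-05). Rbbp7 had 0.0261 and 0.0156 times the genome average of H3K27me3 over the body in untreated cells, both below both values of Rbbp4, and it overlapped no peak of the 4 marks. However, Rbbp7, Ezhip and Kdm6a lie on chromosome X, and Rbbp4 on chromosome 4. Levels were not corrected for chromosome copy number, so Rbbp7 and Rbbp4 cannot be ranked from these values. The annotated start of Kdm6a held 0 reads of H3K27me3 in all 4 quantitative libraries and was not tested. That allows up to 3 reads in each from counting error alone. Its listed start, 1.713 kb inside the gene, did hold some reads. H3K27me3 there was 0.488 and 0.142 times the library mean after DMSO, and 2.66 and 0 after EZH2i.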

How the data were processed

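Each of 18 libraries came as 1 track in which the authors deposited log2 values for 1 kb windows every 500 bp, with no header and in the form log2(1 + reads × factor). Read numbers recovered from the steps were whole in 100% of windows (tolerance 0.02). In untreated libraries the factor gives RPM. In quantitative libraries it was taken as the spike-in factor, which is not given in the sources used here. The submitters' processing notes name Trim Galore 0.4.2, Bowtie2 2.2.6.2, SICER, mm10 and dm3. Deposited peak lists carry a score per peak, not used here as a value. No H3K36me3 peak list was used here.

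Every other window was kept, so windows do not overlap, and a window counted where at least 500 bp lay inside the region. Gene positions are from RefSeq GRCm38.p6, and strand from its promoter table, which covered 17274 of 21631 protein-coding genes. The 2 EZH2i libraries were compared with the 2 DMSO libraries per mark with limma 3.58.1 (R 4.3.3) on log2(mean scaled reads per window + 1), without covariates, for genes with a value above 0 in at least 1 library, at a Benjamini-Hochberg adjusted p under 0.05. Untreated levels were described without a test. All 10 members were named. They and the other lists were chosen with earlier results of these data known. The fit was tested on simulated data scaled by library totals: it recovered most H3K36me2 changes, but for H3K27me3 it missed the smaller ones and, with the larger, made more false calls than the threshold allows, which bears on the H3K27me3 calls on the library-mean scale. The spike-in scale was not simulated. Alternatives were other scalings, pseudocounts, filters, windows, limma-voom, a replicate block, leaving out each library and, for untreated body levels, the median over windows.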

Additional observations from a re-analysis of the deposited data

How the results depend on the processing

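Most settings kept the fall of H3K27me3 on the spike-in scale: 15810 genes were called at starts and 15118 over bodies, with 15681 to 16318 and 15127 to 15283 when 1 library was left out. At starts 9470 were called when reads in all 4 libraries were required, which leaves 9470 genes to test. When each library was scaled by its own total, 0 genes passed limma at starts (5345 at an unadjusted p under 0.05), 0 with the replicate block as well, and 0 to 11588 without 1 library. Over bodies library totals gave 6150 genes (4676 higher, 1474 lower), 3529 with the replicate block and 0 to 10838 without 1 library, with 0 when either DMSO library was missing. Median centring moves the spike-in log2 changes of all genes in a test by the same amount. It split the H3K27me3 calls into 5411 higher and 6516 lower at starts and 6308 and 6566 over bodies, where the spike-in scale gave 0 higher. For H3K36me2, 117 genes at starts and 33 over bodies became 0 and 0 with library totals (2724 and 2719 at an unadjusted p under 0.05), also with the block or without any 1 library. They became 0 and 0 with median centring (1637 and 1364 unadjusted) and 0 and 0 with limma-voom (234 and 231 unadjusted). They were 243 and 74 with a pseudocount of 0.1, 11 and 5 with reads required in all 4 libraries, 14 within 2.5 kb of the start and 90 with the first 1 kb added to the body. Leaving out 1 library gave 57 to 199 at starts and 24 to 83 over bodies. No member was called for H3K36me2 in any of these settings. The causes of these differences were not tested.

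With library totals the log2 change of H3K27me3 over the body turned positive in 9 members: 0.43 in Ezh2, 0.59 in Ezh1, 0.52 in Eed, 0.58 in Suz12, 0.48 in Rbbp4, 0.74 in Mtf2, 1.82 in Phf1, 0.78 in Jarid2 and 0.71 in Aebp2. Median centring adds the same amount to the spike-in log2 change of every gene, so it keeps their order. With it the change was positive in 8: 2.79 in Ezh2, 2.41 in Eed, 2.77 in Suz12, 2.51 in Rbbp4, 3.26 in Mtf2, 0.0187 in Phf1, 1.84 in Jarid2 and 1.01 in Aebp2. Phf19 stayed negative under both, at -0.21 and -2.60. At starts library totals gave a positive change in all members but Phf19 (-0.35) and Aebp2 (-0.12), and median centring in all but Phf19 (-3.55). For H3K36me2, Ezh2 at the start was 0.0331 within 2.5 kb and ran from -1.05 to 0.0614 without 1 library (the highest without EZH2i replicate 2), and Ezh1 over the body ran from -0.42 to 0.22 without 1 library, with 0.15 without DMSO replicate 1 and 0.22 without EZH2i replicate 2.

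The labels number replicates 1 and 2 in each group without stating that a number pairs samples. The difference of replicate 1 minus replicate 2 after DMSO was correlated over all tested genes with that after EZH2i. The Pearson r was 0.02 at starts and 0.10 over bodies for H3K27me3, and 0.10 and 0.51 for H3K36me2. The mean difference for H3K36me2 was 0.617 after DMSO and 0.764 after EZH2i at starts, and 0.507 and 0.680 over bodies. For H3K27me3 it was 0.397 and 0.0399 at starts, and 0.414 and 0.0620 over bodies. Only 2 pairs of libraries per mark stand behind these values. With the replicate block 16144 and 15274 genes were called for H3K27me3, and 0 (1777 at an unadjusted p under 0.05) and 1165 for H3K36me2. Of 50 untreated levels per region, 13 at starts moved by over 1.5-fold without replicate 1 and 9 without replicate 2, against 3 and 1 over bodies. With the median over windows in place of the mean, 6 of the 50 body levels moved by over 1.5-fold. Low read numbers at starts and the shallow H3K27me3 EZH2i libraries limit precision, and intervals of single counts would cover counting error only.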

Other observations

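Some members have further listed starts, and their chromatin was read in the same way. A second start of Mtf2 lies 12.505 kb inside the gene. H3K36me3 there was 3.62 and 2.58 times the genome average in the untreated libraries, H3K36me2 was 0.722 and 0.454, and H3K27me3 was 0.0392 and 0 reads in the second library. Its promoter holds 2 CpG, against 30 at the first start.

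The table lists 3 starts for Aebp2, at 0.209, 2.455 and 4.431 kb from the annotated 5′ end. H3K36me3 was 1.66 and 0.919 at the first, 5.13 and 3.56 at the second and 4.20 and 3.90 at the last. H3K36me2 went the other way between the first and the second, from 1.72 and 1.52 to 1.46 and 0.713. The promoters hold 4, 21 and 4 CpG. In both untreated H3K36me3 libraries the first Aebp2 start was thus the lowest of the 3.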
